A study of Rattus norvegicus with 2 samples.

Results

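The genes of integrins, laminins and their basement membrane partners were described in rat DRGs, where SNs have their cell bodies. Members were defined by their symbol, as genes with 1 symbol per probe set that begins with Itga, with Itgb and a number or with Lama, Lamb or Lamc and a number, or that is Nid1, Nid2, Hspg2, Agrn, Dag1 or a sarcoglycan gene. Of 14217 genes measured, 43 met this rule, and these 43 had 67 probe sets, sets of short probes for a transcript that together give 1 signal. The rule also took in Itgb1bp1, Itgb1bp2 and Itgb3bp, whose proteins bind integrin tails or were named for it, and these are not integrin subunits.

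The RNA came from female SD rats 4 weeks old. In every rat 100000 IP-B12 cells were placed in the marrow of the right tibia. This line, from a rat pulmonary carcinoma, destroys bone as it grows. After 14 days, DRGs on the inoculated side were taken as the tumor side and those belonging to the left tibia as the control side. Labelled cRNA made from 100 ng of total RNA per side was hybridized to 1 GeneChip Rat Genome 230 2.0 array. The number of rats behind each array is not stated in the sources used here, a sham injection of the left tibia is not described, and the control side, too, comes from tumor-bearing rats. The arrays cannot tell an effect of the tumor apart from one of the injection.

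Integrins are receptors of an α and a β subunit that span the membrane and tie the matrix outside a cell to its actin skeleton. Laminins are cross-shaped trimers of an α, a β and a γ chain that self-assemble into the basement membrane, where nidogens, perlecan and agrin link or anchor them. In a peripheral ganglion, Schwann cells, satellite glia around each SN, perineurium and blood vessels all sit on such a membrane, and Schwann cells need laminin to wrap axons. Dystroglycan is a second laminin receptor, held in a complex with sarcoglycans. Leukocytes use integrins with the β2 and β7 subunits, among others, to leave vessels and to hold on to other cells.

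Both arrays carried strong signals of SN genes (Prph, which encodes peripherin, 8896 on the control and 8852 on the tumor side) and of myelinating glia (Mbp, 7967 and 8077), as a DRG should. The median signal was 69.0 for the control and 72.7 for the tumor side. A gene was counted as above the signal rule if either signal was at least the median of that array, and 9695 genes were. Their median log2 ratio (tumor side over control side) was 0.08, so that a ratio near 0.08, not 0, marks the middle of these arrays. Each side is 1 array without replicates, so no test was made and every difference describes these arrays. In its place stands the scatter of all probe sets at like signal. The central 95% of log2 ratios lay between -2.66 and 2.89 for signals under 50, between -0.58 and 0.70 from 50 to 100, between -0.36 and 0.50 from 100 to 300, between -0.19 and 0.37 from 300 to 1000 and between -0.10 and 0.27 above that. In whole ganglia, fewer cells of a type and less RNA per cell cannot be told apart.

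Of the 43 genes, 28 were above the signal rule and 15 were below it. None of the 28 was 1.5-fold higher or lower on the tumor side. Over all genes above the rule, 1.19% were at least 1.5-fold higher and 0.743% at least 1.5-fold lower, and at a fold of 2 the shares were 0.134% and 0.186%. At such low shares a count of 0 in 28 genes is close to the background. The median log2 ratio of the 28 was 0.14, against 0.08 for all genes above the rule, and 19 of the 28 (67.9%) lay above the median gene. The middle of both distributions overlapped widely, since the quartiles were 0.04 and 0.20 for the 28 genes and -0.02 and 0.18 for all genes above the rule. Without regard to the rule, 2 of the 43 were at least 1.5-fold higher and 2 at least 1.5-fold lower, where all genes gave 7.97% and 6.25%, and 1 gene in either direction reached a fold of 2, where all genes gave 4.31% and 3.71%. These 4 genes, Itga11, Itga8, Itgad and Itgax, had signals of 53.9 or less on both arrays. Of all 43 ratios, 41 lay within the central 95% of their signal band, and the other 2 were those of Itgav and Itga7. By definition 95% of all probe sets lie within these bands, so 41 of 43 is close to the share over all probe sets.

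**Figure D1:**
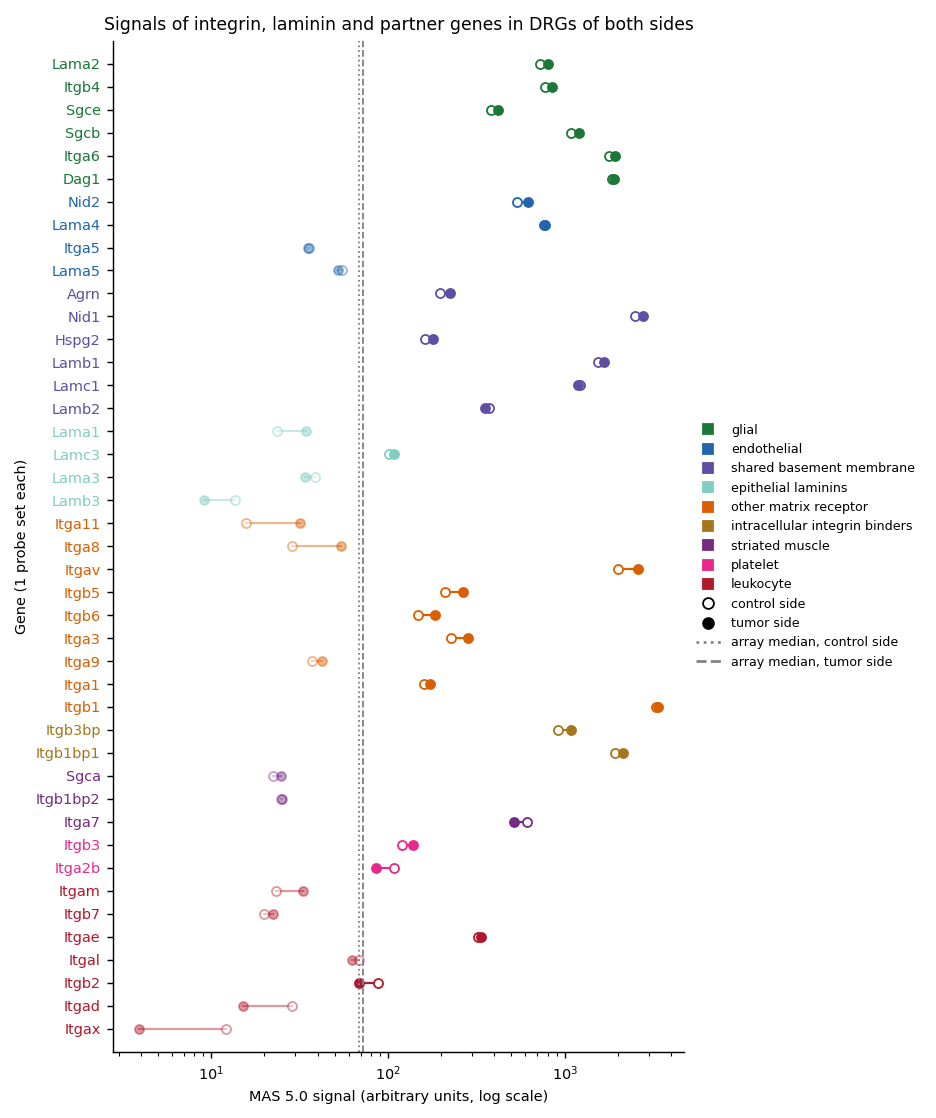
Signal of each gene on the control-side (open circle) and tumor-side array (filled circle), on a log scale in arbitrary units, 1 probe set per gene, with the medians of the arrays as vertical lines and genes below the signal rule in paler colour. Signals of different probe sets are not comparable with each other, and the distance between the circles of a row is what the plot shows, widest for Itgax (12.1 and 3.92) and barely visible for Lama4 (763 and 774).

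On their brightest probe sets, glial laminin receptors and the laminin they bind had close to the same signal on both sides. Of 8 listed genes of Schwann cells and satellite glia, 6 were measured and all 6 were above the signal rule, with log2 ratios from 0.03 to 0.16 and a median of 0.14, and 5 of them lay above the median gene. Itga6, which encodes the α6 subunit of a laminin receptor, had a signal of 1781 in control-side and 1933 in tumor-side DRGs. Its partner Itgb4, whose α6β4 integrin anchors mature Schwann cells and perineurium to laminin, had 769 and 851. The log2 ratios of this pair were 0.12 and 0.15. Lama2, the α2 chain of the laminin that surrounds Schwann cells and muscle fibres, had 720 and 802, a log2 ratio of 0.16. Dystroglycan and its complex stood in the same place. Dag1, which encodes dystroglycan, had 1845 and 1888, and its log2 ratio of 0.03 turned to between -0.06 and -0.05 with quantile normalization, centring or loess. Sgcb, which encodes β-sarcoglycan, had 1090 and 1197, and Sgce, the ε-sarcoglycan that stands in for the α form outside muscle, had 382 and 421. All 6 differences were smaller than the pooled SD of 0.18 between log2 ratios of probe sets of the same gene, and their order among themselves has no support. The listed glial markers, which share no gene with this group, had a median log2 ratio of 0.02 over 9 of 10 measured that were above the rule. Their summed signal was 31672 and 32251, and none of the 9 reached a fold of 1.5.

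The basement membrane components that glia and vessels share were also within narrow bounds. All 6 were above the rule, with log2 ratios from -0.09 to 0.20 and a median of 0.12. Lamb1, the β1 chain found in most laminins of nerve, had 1550 and 1669. Lamc1, the γ1 chain that nearly all laminins contain, had 1228 and 1188, and its second probe set, with 97.6 and 103, went the other way. Lamb2, the β2 chain of synaptic and vascular laminins, had 375 and 353. On the brightest probe sets, Lamb2 and Lamc1 were the laminin chains above the rule with the lower signal on the tumor side, at log2 ratios of -0.09 and -0.05. Both probe sets of Lamc1 were above the rule and differ in sign, at -0.05 and 0.08, so that no direction can be given for Lamc1. Within the trimer of α2, β1 and γ1 chains, the log2 ratios spanned 0.20. The linkers of the membrane gave no common direction beyond the spread. Nid1, which encodes nidogen 1, a bridge between laminin and type IV collagen, had 2507 and 2779 on its brighter probe set and 78.6 and 63.6 on a dimmer one. These 2 log2 ratios, 0.15 and -0.31, differ in sign, so that no direction can be given for Nid1. Hspg2, the gene of perlecan, had 163 and 179, and Agrn, the gene of agrin, which binds dystroglycan, had 197 and 226, a log2 ratio of 0.20.

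Of 4 genes listed as endothelial, 2 were above the rule. Nid2, which encodes nidogen 2, had 535 and 619, a log2 ratio of 0.21. Lama4, the α4 chain of vessel wall laminin, which Schwann cells make too, had 763 and 774, a log2 ratio of 0.02 that turned to between -0.07 and -0.06 with quantile normalization, centring or loess. A second, dim probe set of Lama4 had 8.39 and 22.9, and averaging both took its log2 ratio to 0.73 and the median of the group from 0.12 to 0.47. That value rests on 1 dim probe set. Below the rule were Lama5, the other main α chain of vessels, with 54.9 and 52.1, and Itga5, the α5 subunit of the fibronectin receptor, with 35.6 and 35.1. Over all 4 the median log2 ratio was -0.00095. The endothelial markers had a median log2 ratio of 0.20 over 7 of 10 measured that were above the rule, with a summed signal of 1700 and 1895, and 6 of the 7 lay above the median gene. Cldn5, a tight junction gene of vessels, had 220 and 265, while Pecam1, below the rule, had 61.4 and 62.1. The part of vessel content in the value of Nid2 was not tested.

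Leukocyte integrins were mostly dim in these ganglia. Of 8 listed genes 7 were measured, and 2 of these, Itgb2 and Itgae, were above the rule. Itgb2, the β2 subunit shared by the integrins of neutrophils, macrophages and T cells, had 87.6 and 68.8, a log2 ratio of -0.35, and only its control-side signal reached the median. Itgae, the αE subunit of an integrin of T cells and dendritic cells that holds E-cadherin, had 323 and 335, a log2 ratio of 0.05 that turned to between -0.03 and -0.02 with quantile normalization, centring or loess. Their median of -0.15 therefore rests on these 2 genes. The β partner of αE, Itgb7, and 8 of 10 lymphocyte markers measured were below the rule. What leukocytes contributed to the signal of Itgae was not tested. The α partners of β2 were all below the rule. Itgal, the αL subunit of LFA-1, had 68.4 and 62.9. Itgam, the αM subunit known as CD11b, had 23.2 and 33.1. Itgax, known as CD11c, had 12.1 and 3.92, the latter no higher than the brightest bacterial trp control on that array, 4.63. Itgad, known as CD11d, had 28.5 and 15.2, and Itgb7, the β7 subunit of gut-homing and αE integrins, had 19.9 and 22.4. Of the 4 α partners, 3 were thus lower and 1 was higher on the tumor side, at signals where the scatter of all probe sets was widest. Over all 7 the median log2 ratio was -0.12. The marker lists of leukocytes did not go one way. Of 6 granulocyte markers measured, the 3 above the rule were lower on the tumor side, with a median log2 ratio of -1.19. The summed signal over all 6 was 1173 and 579. Below the rule, at signals under 50, Camp and Mmp8 gave log2 ratios of 0.39 and 1.82, and Cxcr2 gave -0.04. Of the 6, 2 (Cxcr2 and Mmp8) were no higher than the trp controls on at least 1 array. Macrophage markers had a median of 0.17 over 8 of 10 measured and a summed signal of 1513 and 1694. Of these 8, 6 lay above the median gene and 2, Cd68 and Cd14, were lower on the tumor side. Lymphocyte markers had a summed signal of 434 and 441, with 2 of 10 measured above the rule and 4 (Cd2, Cd3d, Cd79b and Cd8a) no higher than the trp controls on at least 1 array. Ptprc, the pan-leukocyte gene of CD45, had 216 and 236. What granulocytes contributed to the lower signal of Itgb2 was not tested.

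**Figure D2:**
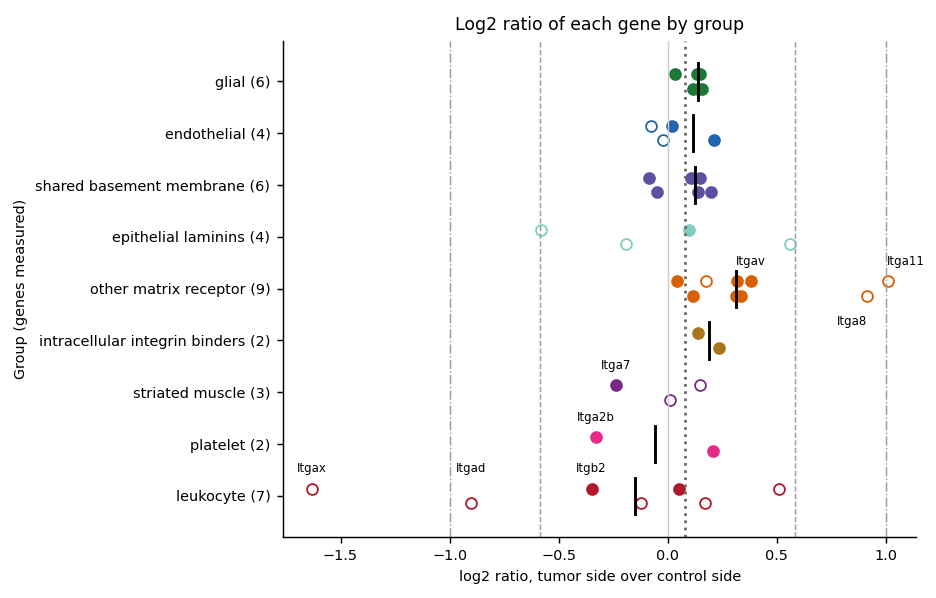
Log2 ratio (tumor side over control side) for the 43 genes by group, 1 circle per gene, filled if above the signal rule and open if below it. Black bars are medians of the filled circles, where a group has more than 1 (0.14 for glial and -0.15 for leukocyte genes), the dotted line is the median gene (0.08), and dashed and dash-dotted lines mark folds of 1.5 and 2. Filled circles stay within a fold of 1.5, and the open circles spread more widely.

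Platelet and muscle members were few. Itga2b, the αIIb subunit of the platelet fibrinogen receptor, had 108 and 85.8, a log2 ratio of -0.33, whereas its partner Itgb3, the β3 subunit that vessels and osteoclasts use too, had 121 and 139, a log2 ratio of 0.21. These subunits of 1 receptor thus differed by 0.54. Pf4, the only platelet marker above the rule of 5 measured, had 159 and 168, and the summed signal of the 5 was 234 and 248. Erythroid markers were lower on the tumor side, as Itga2b and Itgb2 were, with a median log2 ratio of -0.38 over 3 of 5 measured and a summed signal of 4402 and 3404. Among them, Hbb, a globin gene, had 4126 and 3207. What blood cells contributed to Itga2b and Itgb2 was not tested. Itga7, the α7 subunit of a laminin receptor of muscle that some neurons carry as well, had 608 and 516 on its brightest probe set, a log2 ratio of -0.24, and this lay below the central 95% of its signal band. A second probe set of Itga7, with 261 and 308, went the other way by as much, at 0.24. Both end in a, which marks probe sets that can catch several transcripts of a gene. A further probe set had 2.41 and 0.74, within the background. No direction can be given for Itga7 from these. Skeletal muscle markers were lower on the tumor side, with a median log2 ratio of -1.62 over 11 of 15 measured, 9 of them by at least a fold of 2. Myh1, with 1583 and 1742, and Pvalb, with 1063 and 1200, were higher. Myh1 has 5 probe sets, and the one used ends in x, which marks probe sets that may also catch other sequences. Whether the signals of Myh1 and Pvalb come from muscle was not tested. The summed signal over all 15 was 4222 and 3457, most of it from Myh1 and Pvalb, so this sum hides the fall of the others. Sgca, the α-sarcoglycan made in striated muscle, was below the rule at 22.3 and 24.7, and so was Itgb1bp2, the gene of the muscle protein melusin, with a log2 ratio of 0.01. Neither of these muscle members was lower on the tumor side. Both had signals under 50, where the central 95% of log2 ratios ran from -2.66 to 2.89, so that no direction can be given for either. The contribution of muscle to Itga7 was not tested.

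The highest log2 ratio of the 28 was that of the αv subunit, whose integrins bind vitronectin, fibronectin and latent TGF-β. Itgb2, Itga2b and Itga7 lay further from the median gene, on its lower side. Itgav, the αv subunit, had 1999 in control-side and 2604 in tumor-side DRGs, a log2 ratio of 0.38 or 1.30-fold higher. At this signal the central 95% of all probe sets ended at 0.27. Its other 2 probe sets, with 156 and 169 and with 154 and 157, gave 0.11 and 0.03, so that the mean over the 3 was 0.17. Of the 4 β partners of αv above the rule, 3 lay above the median gene and Itgb1, at 0.04, lay below it. Itgb5 had 211 and 267 on its brightest probe set, a log2 ratio of 0.34, and 161 and 177 on the next, which gave 0.14. Itgb6, known mainly from epithelia, had 148 and 184, a log2 ratio of 0.32. Itgb3 had 0.21, and all 4 β subunits lay within the central 95% of their signal band. Fibroblast and meningeal markers were higher too, with a median log2 ratio of 0.31 over 8 of 9 measured and a summed signal of 25251 and 27688, and so were bone markers, with 1.01 over 5 of 9 and a summed signal of 942 and 1947. What these tissues contributed to the αv genes was not tested.

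The window before the annotated start of Itgav is shown because Itgav had the highest log2 ratio of the 28, and those of Itgam and Itgae because PU.1, a transcription factor of myeloid and B cells, is known to drive leukocyte integrins. The sequences come from a RefSeq table of GRCr8, which held 33 of the 43 genes, and each is the strand of the gene and the last 120 bases before the start. Capitals mark the letters of a GC box (GGGCGG) or of a PU.1 core (GAGGAAG) on either strand.
Itgav, chr3:89245262-89245381, plus strand: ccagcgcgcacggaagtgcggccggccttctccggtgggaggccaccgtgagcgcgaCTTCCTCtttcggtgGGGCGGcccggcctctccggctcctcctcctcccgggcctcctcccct
Itgam, chr1:192089472-192089591, plus strand: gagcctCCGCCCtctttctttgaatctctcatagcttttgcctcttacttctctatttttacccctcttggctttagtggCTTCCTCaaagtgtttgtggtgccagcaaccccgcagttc
Itgae, chr10:58203248-58203367, plus strand: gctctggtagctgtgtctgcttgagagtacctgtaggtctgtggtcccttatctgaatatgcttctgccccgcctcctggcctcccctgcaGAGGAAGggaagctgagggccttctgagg

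The PU.1 letters stood in 6 of the 33 windows (18.2%), those of Itga11, Itgae, Itgam, Itgav, Itgb6 and Lamc1, against 5.66% of the windows of 11733 genes on the array and 5.22% of all 27457. The windows of Itgax and Itgb7, also listed as leukocyte genes, held no PU.1 letters. Itga11, Itgav, Itgb6 and Lamc1 were not listed as leukocyte genes. GC box letters stood in 11 of the 33 (33.3%), against 43.7% and 25.3%. Of the 6 genes with PU.1 letters, 5 had log2 ratios over 0, from 0.05 for Itgae to 1.01 for the dim Itga11, and Lamc1 had -0.05. Above the signal rule, 82.1% of members and 70.9% of all genes had ratios over 0, so this count does not set the 6 genes apart. TATA box letters (TATAAA) stood in 1 of the 33, that of Itgb7, against 4.73% of the genes on the array, and ETS letters (CCGGAAG) in 3, those of Itga2b, Itga3 and Itgb3bp, against 9.60%. An E box (CACGTG) and a SOX core (ACAAAG) were in none of the 33 windows, against 4.67% and 5.36%. In Itgav and Itgam the GC box letters and the PU.1 letters do not overlap. A match in letters is not a binding site.

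Other matrix receptors followed the median gene or lay somewhat above it. Itgb1, the β1 subunit that pairs with most α subunits, had 3291 and 3385 on one probe set and 1229 and 1323 on another, and the first of these, at a log2 ratio of 0.04, turned to between -0.04 and -0.02 with quantile normalization, centring or loess. Itga1, the α1 subunit of a collagen and laminin receptor, had 160 and 174. Itga3, the α3 subunit of a laminin receptor, had 228 and 283, a log2 ratio of 0.31. Below the rule, 3 α subunits of connective tissue and smooth muscle were dim. Itga11, the α11 subunit of the collagen receptor of fibroblasts, had 15.8 and 31.7, which is 2.01-fold. Itga8, the α8 subunit that binds nephronectin, had 28.6 and 53.9 on one probe set and 20.7 and 24.4 on another. Itga9, the α9 subunit of a tenascin receptor, had 37.3 and 42.1 on one probe set and 30.4 and 13.9 on another, which points the other way. All 5 of these probe sets had signals of 53.9 or less on both arrays, where such ratios were common. Of the intracellular binders, Itgb1bp1, which encodes ICAP-1, had 1936 and 2133, and Itgb3bp, which encodes a centromere protein first found through β3, had 921 and 1086 on one probe set and 700 and 868 on the other. Both of its probe sets gave higher signals on the tumor side, at log2 ratios of 0.24 and 0.31.

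Epithelial laminin chains were hardly seen. Lamc3, the γ3 chain, was above the rule with 101 and 108. Lama1, Lama3 and Lamb3, chains of embryonic and of skin laminins, had signals from 9.12 to 38.6. Lama1 had 23.4 and 34.6, Lama3 38.6 and 33.8, and Lamb3 13.6 and 9.12. Of 6 epithelial markers measured, 5 were below the rule as well, and Krt14, a keratin of skin, had 5.47 and 5.56. The sixth, Cdh1, the gene of E-cadherin and the ligand of the αE integrin, had 2345 and 2571.

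**Figure D3:**
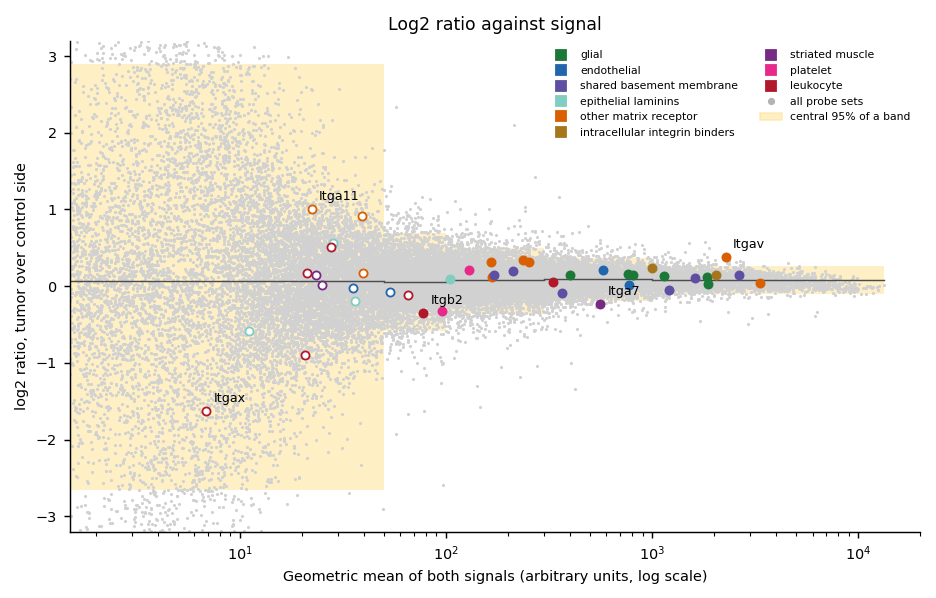
Log2 ratio (tumor side over control side) plotted over the geometric mean of its signals (log axis), with grey points for probe sets, shading for the central 95% of each of 5 signal bands, lines for the median of each band and circles for the 43 genes, filled if above the signal rule (probe sets outside the axes are not drawn). The shading narrows from -2.66 to 2.89 at signals under 50 to -0.10 to 0.27 at the highest, and Itgav (0.38) and Itga7 (-0.24) lie outside it.

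Different probe sets of the same gene show how far such small ratios can be read. Of the 43 genes, 15 had more than 1 probe set, and 5 of these 15 (Itga6, Itga7, Itga9, Lamc1 and Nid1) had log2 ratios of both signs. That is 33.3%, against 50.3% of the 4525 genes of the array with more than 1 probe set. Over probe sets above the rule, 10 genes had more than 1, with a pooled SD of 0.20, against 0.18 over 2201 genes of the array, and 3 of the 10 (30.0%) had both signs, against 37.8%. The shares of 30.0% and 37.8% lie near each other. Itga6 shows the problem best, with log2 ratios of 0.12, 0.61, -0.27 and -0.09 from the brightest probe set to the dimmest. The probe sets with 0.12 and 0.61 were above the rule. By contrast, Itgb1 gave 0.04 and 0.11, and Sgcb gave 0.14, 0.10 and 0.28, on probe sets that were all above the rule. Dag1 gave 0.03 and 0.13 on its bright probe sets and 0.94 and 0.14 on its dim ones.

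**Figure D4:**
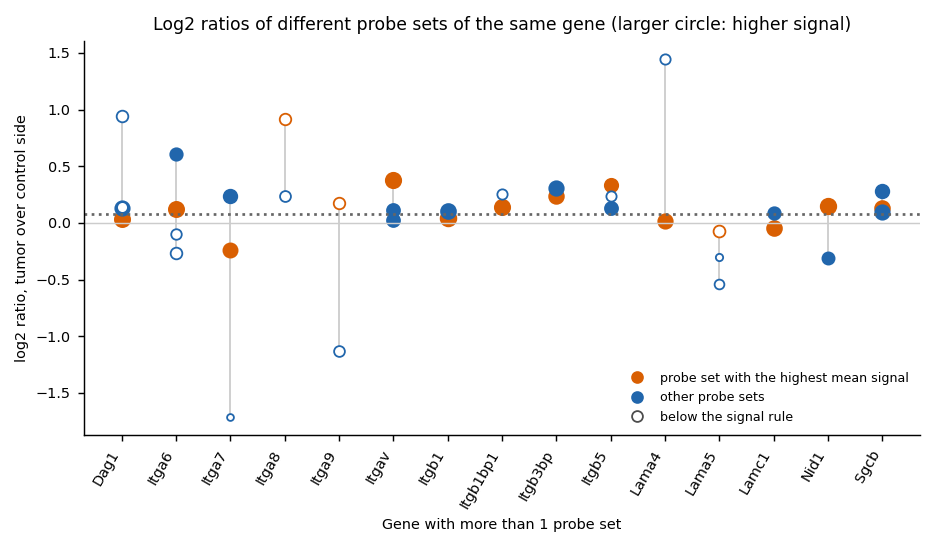
Log2 ratio of every probe set for the 15 genes with more than 1, with larger circles for higher signals, orange for the probe set with the highest mean signal, blue for the others and open circles for those below the signal rule. The dotted line is the median gene (0.08). Circles of Itgb1 and Itgb3bp lie close together, and those of Itga7 run from -1.71 to 0.24.

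Genes that act with these receptors were taken from 5 lists, and none above the rule passed a fold of 1.5, where 1.19% of all genes were higher and 0.743% lower by that fold. Below the rule, Col4a4, Dmd, Fga and Fgg were higher and Fblim1 and Madcam1 lower by at least that fold. All of these had mean signals under 50, where 48.6% of all probe sets passed a fold of 1.5 in either direction. Col4a4 and Fgg were no higher than the trp controls on at least 1 array. Of 22 measured focal adhesion adaptors, the proteins that couple integrins to actin, 18 were above the rule, with a median log2 ratio of 0.07. The talins, which switch integrins on, were lower on the tumor side on the probe sets used, with 318 and 253 for Tln1 and 229 and 186 for Tln2, log2 ratios of -0.33 and -0.30. Rsu1, a partner of the integrin-linked kinase complex, had 349 and 422, a log2 ratio of 0.27. The kinase itself, Ilk, had 1065 and 1066.

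Other matrix genes of the basement membrane had a median log2 ratio of 0.14 over 14 of 17 measured. Fbln1, which encodes fibulin 1, had 84.3 and 118, and Col4a2, a chain of type IV collagen, had 104 and 143, log2 ratios of 0.48 and 0.46. Col4a1, which forms 1 collagen with it, had 678 and 677. Ntn1, which encodes the laminin-like netrin 1, had 212 and 255. In the dystrophin complex, 6 of 7 measured genes were above the rule, with log2 ratios from 0.05 to 0.26. Drp2, which links periaxin to dystroglycan in myelinating Schwann cells, had 928 and 1114, Prx, the gene of periaxin, had 1044 and 1132, and Sspn, the gene of sarcospan, had 323 and 361. The enzymes that put laminin-binding sugars on dystroglycan had a median of 0.01 over 6 of 7 measured, from Pomt1 with 95.9 and 90.6 to Pomk with 241 and 280, and Pomgnt1 had 307 and 313.

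Among other integrin ligands, 13 of 18 measured were above the rule, with a median of 0.11. Thbs2, which encodes thrombospondin 2, had 88.6 and 117, a log2 ratio of 0.41, Icam2, a ligand of β2 integrins on vessels, had 107 and 86.6, a log2 ratio of -0.30, and Tnr, which encodes tenascin R, had 77.1 and 65.1. Fn1, the gene of fibronectin, with 943 and 1004, and Vtn, the gene of vitronectin, with 265 and 311, had log2 ratios of 0.09 and 0.23, and Spp1, the gene of osteopontin, had 7642 and 7675. All 3 encode ligands of αv integrins. Vcam1 had 329 and 378.

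**Figure D5:**
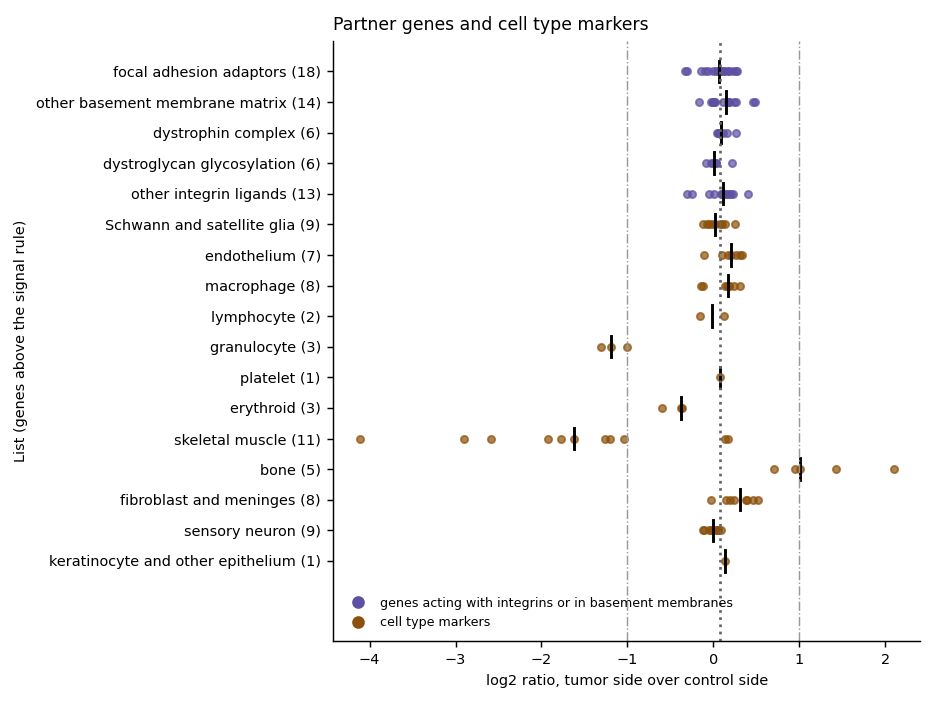
Log2 ratio (tumor side over control side) for genes above the signal rule in 5 lists of partner genes (purple) and 12 lists of cell type markers (brown), points for genes (numbers of genes in brackets), the median of each list as a bar, the median gene (0.08) as a dotted line and folds of 2 as dash-dotted lines. The partner genes stay between -0.33 and 0.48, while skeletal muscle (median -1.62), granulocyte (-1.19) and bone markers (1.01) lie apart.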

How the data were processed

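Gene expression in DRGs of the control side and of the tumor side was measured on 1 array each. The authors computed signal intensity values with MAS 5 (named in the submitters' processing notes) at default settings and deposited them on a linear scale. Whether the arrays were scaled to a common target is not stated in the notes or methods. Log2 ratios (tumor side over control side) were computed here without a pseudocount, and the number of arrays limits the precision.

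Genes were taken from the 2016 platform annotation, and all 67 probe sets of the members kept their symbol when matched by gene identifier to the RefSeq annotation of GRCr8. For a gene with several probe sets, that of the highest mean log2 signal was used. The signal rule kept a gene with at least 1 signal at or above its array's median. Without replicates no test could be made, and counts use folds of 1.5 and 2. All members above the signal rule were named, and of each list of pathway genes up to 3 above the rule with the log2 ratios largest in size (further genes were picked with their values known). The members and all lists were chosen with earlier results of these data known. The spread was described by the central 95% of log2 ratios of all probe sets in 5 bands of signal and by the pooled SD between probe sets of a gene.

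Alternatives were quantile normalization, centring on the median, loess (span 0.3), a pseudocount of 11.1 (percentile 20 of all signals), 3 other signal filters (none, percentile 75, both arrays at their median), averaging a gene's probe sets, and leaving out probe sets with the endings x, s and a. The steps were tested on simulated data. Motifs were searched on both strands of the 120 bases before the start of genes in a RefSeq table of GRCr8. Software was matplotlib 3.10.9, statsmodels 0.14.6, pandas 2.3.3, numpy 2.4.6 and Python 3.11.15.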

Additional observations from a re-analysis of the deposited data

How the results depend on the processing

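Of 72 counts and medians under the 9 alternatives, 64 stayed inside the bound set for them (0.18 for medians, 1.5 times for counts) and 8 went past it. The bound for medians is as wide as the medians themselves and says little of them. Without a signal filter, which adds 15 dim genes, 1 gene was at least 2-fold higher and 1 at least 2-fold lower, and 2 and 2 were so at 1.5-fold. Averaging a gene's probe sets put 1 gene (Lama4) at least 1.5-fold higher and the endothelial median at 0.47, through a dim probe set. The leukocyte median became 0.05209 where each signal had to reach its array's median and 0.05209 at percentile 75, since Itgae alone was left. Of 168 values of single genes, 161 moved by less than the pooled SD of 0.18 between probe sets and 7 by more, and 14 changed sign. Quantile normalization, centring and loess took the median gene from 0.08 to about 0, and with it the median of all members from 0.14 to 0.05, of glial members from 0.14 to 0.05, of endothelial members from 0.12 to 0.03 and of leukocyte members from -0.15 to between -0.23 and -0.22. Without a signal filter the endothelial median was -0.00095. No paired analysis was possible because neither side has a second array. Low signal limits precision, since 15 of the 43 genes lay below the array medians.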
